A study of Mesocricetus auratus with 6 samples.

Results

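The *Period* genes, the casein kinases that phosphorylate their proteins and the F-box genes that mark those proteins for destruction were followed in Syrian hamsters carrying the *duper* mutation and in wild-type hamsters. The set was chosen by name and holds 7 of the 31593 genes in the deposited tables: *Per1*, *Per2*, *Per3*, *Csnk1d*, *Csnk1e*, *Btrc* and *Fbxw11*. RNA-seq was done on cortex, on the suprachiasmatic nucleus (SCN, the master clock of the hypothalamus) and on liver. Tissues were taken at circadian time 15 (CT15) from animals housed in 14 h of light and 10 h of dark. This was the only time sampled for RNA-seq, so a difference in a rhythmic mRNA cannot be told apart from a shift in its timing. Each genotype and tissue has 1 deposited library, 6 in all. Equal groups of 4 hamsters stand behind each of them, as mixed RNA for cortex and SCN and as merged reads of separate libraries for liver. Cortex, SCN and liver were taken from one group of animals per genotype, and a genotype difference seen across tissues therefore rests on shared animals.

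The *duper* group consisted of 4 females and the wild-type group of 2 females and 2 males, so that genotype and sex cannot be told apart fully. *duper* is a frameshift in *Cry1* that removes the CRY1 protein. It arose in animals homozygous for *tau*, an allele of *Csnk1e*, and was separated from *tau* by backcrossing to LVG hamsters, and a difference between genotypes cannot be told apart from one due to other variants carried along. Levels are given as TPM, a transcript abundance that the authors scaled for transcript length and library total, so levels can be compared between genes of a library.

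In the mammalian clock, CLOCK and BMAL1 activate the *Per* and *Cry* genes, and the PER and CRY proteins return to the nucleus and repress that activation. Casein kinase 1 delta and epsilon bind PER1 and PER2 and phosphorylate them. Phosphorylated PER is recognised by the F-box proteins beta-TrCP1 (*Btrc*) and beta-TrCP2 (*Fbxw11*), which hand it to an SCF ubiquitin ligase for breakdown by the proteasome. The amount of each mRNA says nothing about kinase activity or protein level, and the RNA data used here hold neither. The study itself followed PER1 and PER3 protein in liver over the day by Western blot. It reports an earlier phase of PER3 in *duper* without a significant difference in total level, and no significant change for PER1. It also reports lower liver *Per3* mRNA at CT15.

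The mutated gene was examined first. Cortical levels of *Cry1* were 33.3 TPM (wild type) and 8.56 TPM (*duper*), SCN levels were 22.9 and 8.14 TPM, and liver levels were 16.8 and 5.44 TPM. The *duper* library was the lower one in each tissue. Estimated counts per library summed to between 6788947 and 85748562, and the 7 genes had between 476 and 7581 estimated counts each in every library. All 7 passed the filter on low counts.

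The tissue labels were compared with marker genes. The cortical glutamate transporter *Slc17a7* stood at 767 and 669 TPM in the cortex libraries and at 8.61 and 3.66 TPM in the SCN libraries. *Nms*, a neuropeptide of SCN neurons, was at 33.5 and 13.4 TPM in the wild-type and *duper* SCN libraries and at 0 in the other libraries. *Alb* reached 107273 and 112117 TPM in liver. *Vip*, *Avp* and *Grp* were not analysed here.

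The *Period* genes were expressed in every library, and their order changed with the tissue. *Per1*, a gene that light and cAMP signalling induce acutely, stood at 62.2 TPM (wild type) and 67.6 TPM (*duper*) in cortex. Its SCN levels were 23.9 and 26.9 TPM and its liver levels 12.2 and 16.3 TPM, in the same order of genotypes as everywhere below. These levels formed 3 steps that did not overlap, and in each tissue the *duper* library was the higher one. *Per2*, the paralog whose protein is the best known substrate of the 2 kinases, had cortical levels of 47.9 and 58.6 TPM, SCN levels of 24.0 and 37.9 TPM and liver levels of 31.3 and 17.5 TPM. The *duper* library was the higher one in both brain tissues and the lower one in liver. *Per3*, the paralog least needed for rhythm in mice, had cortical levels of 33.8 and 33.7 TPM, SCN levels of 29.4 and 30.6 TPM and liver levels of 18.8 and 10.8 TPM. The genotypes' *Per3* levels lay closest in cortex and furthest apart in liver.

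The kinase and F-box genes lay further apart between brain and liver than between genotypes. *Csnk1d* had cortical levels of 133 TPM (wild type) and 134 TPM (*duper*), SCN levels of 126 and 122 TPM and liver levels of 33.2 and 32.7 TPM. *Csnk1e* had 106 TPM in both cortex libraries, SCN levels of 87.3 and 98.5 TPM and liver levels of 15.2 and 14.2 TPM. For both kinases all brain libraries lay above both liver libraries. *Btrc* had cortical levels of 54.9 and 57.2 TPM, SCN levels of 54.0 and 60.1 TPM and liver levels of 1.88 and 1.91 TPM. *Fbxw11* had cortical levels of 81.0 and 80.8 TPM, 61.5 TPM in both SCN libraries, and liver levels of 15.3 and 15.7 TPM. *Btrc* therefore had the widest range of the 7 genes, 32.1-fold from its lowest to its highest library, and *Per3* the narrowest, 3.14-fold.

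**Figure D1:**
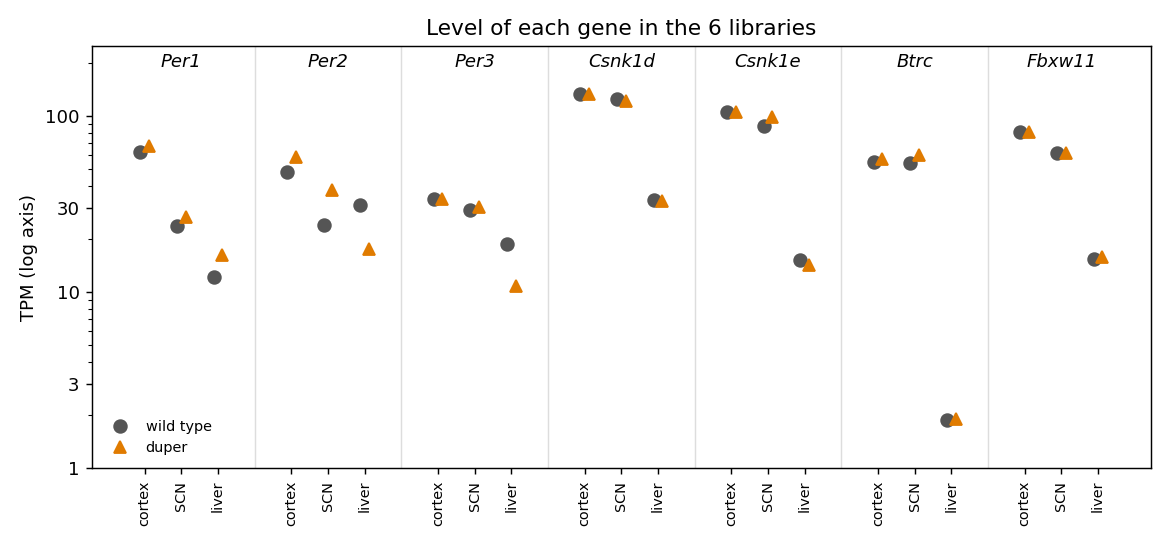
Level of each of the 7 genes in TPM (log axis) in cortex, SCN and liver, with 1 point per library, circles for wild type and triangles for *duper*. The *Btrc* points lie between 54.0 and 60.1 TPM in brain and at 1.88 and 1.91 TPM in liver, and the *Per2* points change their genotype order between brain and liver.

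Within a tissue each genotype has 1 library, so differences between genotypes were described by the log2 ratio of TPM with a 95% interval that covers counting error only, and no test was made. A difference is called past the threshold where the log2 ratio exceeds 0.58 in size. In cortex none of the 7 genes was past it, where 19.1% of the 17586 genes averaging 1 TPM or more were (9.69% higher and 9.39% lower in *duper*). That share was not matched to the 7 genes in level or counts, and counting error alone widens the ratios of weakly expressed genes. The same holds for the shares given for SCN and liver below. The ratio of *Per2* was 0.29 (95% interval 0.17 to 0.41), from 861 and 1584 estimated counts, and that of *Per1* was 0.12 (0.01 to 0.23). The 4 kinase and F-box genes lay between -0.01 and 0.06. Markers differed between the cortex libraries too. *Calb2* had 31.5 TPM (wild type) and 144 TPM (*duper*), and *Npy* 253 and 125 TPM. The 9 choroid plexus and ependymal markers found summed to 75.1 and 117 TPM. Of these, *Kcnj13* (12.8 and 10.6 TPM), *Kl* (6.5 and 3.0 TPM) and *Clic6* (12.9 and 11.9 TPM) were lower in *duper*. The others were higher, most of all *Ccdc153* (4.19 and 28.9 TPM) and *Rarres2* (24.0 and 38.7 TPM). The cortical markers summed to 1357 and 1276 TPM. The part of these differences in the cortical ratios was not tested.

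In the SCN *Per2* alone was past the threshold, against 17.2% of 17844 genes (8.35% higher and 8.81% lower in *duper*). Its *duper* level was 58.2% above wild type, on 2147 wild-type and 805 *duper* counts, and the log2 ratio was 0.66 (0.54 to 0.78). *Per1* had a ratio of 0.17 (0.03 to 0.31) and *Per3* one of 0.06 (-0.07 to 0.18). *Csnk1e* and *Btrc* had ratios of 0.17 (0.07 to 0.28) and 0.15 (0.07 to 0.24), while *Csnk1d* was at -0.04 and *Fbxw11* at 0.00. The *duper* SCN library was also the lower of the pair in several markers of the nucleus itself. The homeobox genes *Six6* (8.79 and 6.01 TPM), *Six3* (34.2 and 25.1 TPM) and *Lhx1* (7.78 and 4.94 TPM) all stood lower in *duper*, as did *Nms* and *Syt10* (19.2 and 15.8 TPM). *Calb2* (289 and 340 TPM), *Gad1* (202 and 208 TPM) and *Zfhx3* (16.9 and 17.6 TPM) stood higher in *duper*, and *Rorb* was at 17.7 TPM in both. The summed level of the 11 SCN markers found was 654 and 672 TPM, with 10 of the 11 at 1 TPM or more in both libraries and *Prok2* below that in both. *Pmch*, a peptide gene of the lateral hypothalamus, differed as well (58.2 and 11.4 TPM), and so did *Kiss1* (1.89 and 15.3 TPM). The part of these differences in the *Per2* value was not tested.

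In liver *Per2* and *Per3* stood lower in *duper* and *Per1* stood higher. *Per2* had a percent difference of -44.0 from wild type and a log2 ratio of -0.84 (-0.89 to -0.79) on 7581 and 5287 counts. *Per3* had a percent difference of -42.8 and a log2 ratio of -0.81 (-0.87 to -0.74). *Per1* was 33.2% higher in *duper*, at 0.41 (0.34 to 0.48) on 2749 and 4558 counts. *Per2* and *Per3* were past the threshold, against 20.4% of 13953 genes (6.29% with a higher and 14.1% with a lower level in *duper*). The median log2 ratio of those genes was -0.12 in liver. On TPM rescaled by TMM, the trimmed mean of M-values used to make libraries comparable, the ratios were -0.67 for *Per2*, -0.64 for *Per3* and 0.58 for *Per1*, which then also lay just past the threshold. *Csnk1d* (-0.02), *Csnk1e* (-0.09), *Btrc* (0.03) and *Fbxw11* (0.04) showed log2 TPM ratios close to 0, each with an interval that included 0. Rescaled by TMM they were 0.15, 0.08, 0.20 and 0.21, so that the sign turned for both kinases.

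Markers of other cells also differed between the 2 liver libraries. The 8 microglia and macrophage markers found summed to 290 TPM (wild type) and 463 TPM (*duper*), with 6 of the 8 at 1 TPM or more in both, and the 3 erythroid markers found summed to 16.5 and 7.88 TPM. The 10 hepatocyte markers summed to 139486 and 149440 TPM, most of it *Alb* (107273 and 112117 TPM). *Apob* (781 and 741 TPM), *Cyp7a1* (68.7 and 43.9 TPM), *Tat* (849 and 744 TPM) and *Cps1* (1485 and 1201 TPM) were lower in *duper*. The other hepatocyte markers were higher, among them *Fgb* (2493 and 5805 TPM). The part of these marker differences in the *Per2* and *Per3* values was not tested. Fewer cells of a type cannot be told apart from less RNA per cell in bulk tissue.

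**Figure D2:**
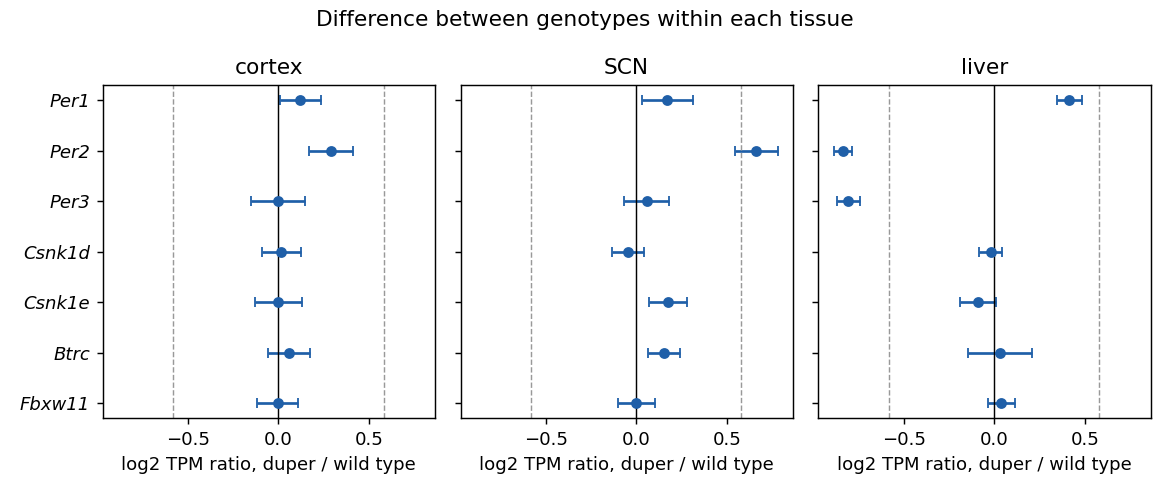
Log2 ratio of TPM, *duper* over wild type, for each gene in cortex, SCN and liver, with 95% counting intervals as bars and the threshold of 0.58 as dashed lines. *Per2* lies at 0.66 in SCN and -0.84 in liver, *Per3* at -0.81 in liver, and the 4 kinase and F-box genes lie between -0.09 and 0.17 in all 3 panels.

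Across the 3 tissues the genotypes were compared in a model with tissue and genotype as terms (edgeR's quasi-likelihood test over 18275 genes, p-values adjusted by Benjamini and Hochberg's method). Calls needed both an adjusted p under 0.05 and a log2 fold change over 0.58 in size. None of the 7 genes was called, and none had an unadjusted p under 0.05. Over all genes 0.00547% were called and 3.32% had an unadjusted p under 0.05. *Per1* had the largest difference of the 7, 0.28 ± 0.13 (log2 fold change ± SE, adjusted p = 0.998), and was higher in *duper* in 3 of 3 tissues. *Per3* had -0.21 ± 0.15, which became 0.0047 without the liver libraries. *Per2* had 0.07 ± 0.24, with the largest SE of the 7, and its sign depended on the tissues kept (0.45 without liver and -0.22 without the SCN). The kinase and F-box genes had values between 0.02 ± 0.10 (*Csnk1e*) and 0.12 ± 0.10 (*Btrc*). DESeq2, the likelihood ratio test and limma on TPM called none of the 7 either. *Cry1* had -1.69 ± 0.17 (adjusted p = 0.131). It was called by DESeq2 (adjusted p = 2.61e-08), by the likelihood ratio test (adjusted p = 9.79e-13), without the low-count filter (adjusted p = 0.00213) and without the SCN (adjusted p = 0.0356) or the liver libraries (adjusted p = 0.00128).

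Whether the genotype effect in liver differed from that in brain was then tested with an interaction term, in which cortex and SCN serve as a pair for the brain. *Per2* was the member called. Its effect in liver was lower than that in brain by a log2 difference of -1.10 ± 0.19 (adjusted p = 0.00691, edgeR's quasi-likelihood test), where 3.24% of all genes were called, and 1.36% on the lower side. From TPM, the liver ratio was lower than the cortex ratio by -1.12 and than the SCN ratio by -1.5. Library size alone moved the median gene from 0.06 to -0.10 and *Per2* to -1.27. Liver has 1 library per genotype, so its effect has no replicate. The fit leaves 1 residual degree of freedom per gene, the gap between the cortex and SCN effects, and the 5 alternatives gave values from -1.27 to -1.09 with adjusted p from 1.17e-05 to 0.0847. DESeq2, which gave the largest of these p-values, did not call it. *Per3* went in the same direction, at -0.62 ± 0.18, without being called (adjusted p = 0.0818). It was called with a filter of 10 counts in every library (adjusted p = 0.0272) and with the likelihood ratio test (adjusted p = 0.0236). *Per1* had the opposite sign, 0.48 ± 0.17 (adjusted p = 0.168). The remaining 4 genes lay between -0.14 and 0.25, with adjusted p of at least 0.506.

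The shares of the 3 genes in the *Period* mRNA differed between tissues and, most of all in liver, between genotypes. The 3 genes together had cortical totals of 144 TPM (wild type) and 159.9 TPM (*duper*), SCN totals of 77.2 and 95.4 TPM and liver totals of 62.3 and 44.6 TPM, so the *duper* total was the higher one in brain and the lower one in liver. *Per1* supplied 43.2% and 42.3% of the cortical total, 30.9% and 28.2% of the SCN total and 19.6% and 36.5% of the liver total. *Per2* supplied 33.3% and 36.6% of the cortical, 31.1% and 39.8% of the SCN and 50.2% and 39.3% of the liver total. The leading gene was *Per1* in both cortex libraries and *Per2* in both liver libraries. In the SCN it was *Per3* in wild type (38.1%) and *Per2* in *duper*. The wild-type SCN was the most even library, with 1.23-fold between its highest and its lowest *Period* gene, and the wild-type liver the least even, with 2.56-fold.

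**Figure D3:**
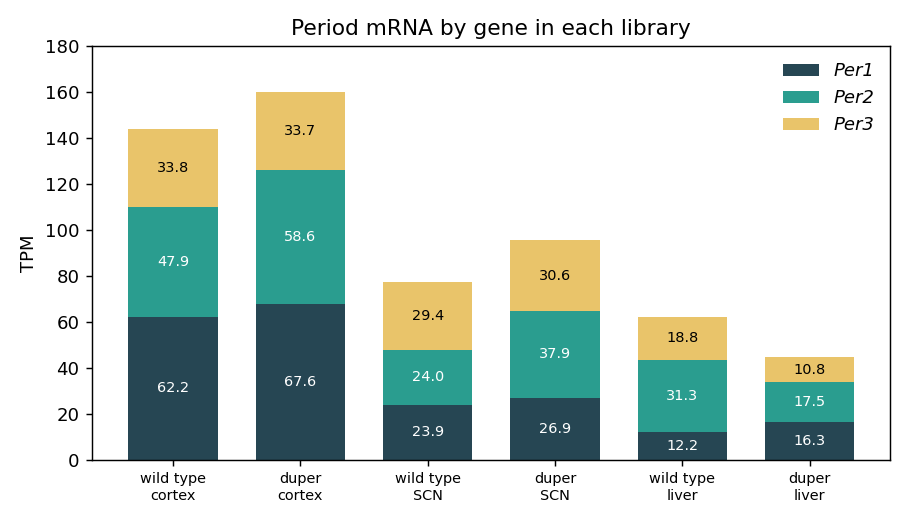
TPM of *Per1*, *Per2* and *Per3* stacked from 0 for each of the 6 libraries, with the value of each gene written in its segment. The stack is tallest in cortex (144 and 159.9 TPM), and in liver the *Per2* segment is 31.3 TPM (wild type) and 17.5 TPM (*duper*), while the *Per1* segment is 12.2 and 16.3 TPM.

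Ratios between family members within a library do not depend on how libraries are scaled to each other. The ratio of *Per1* to *Per2* in cortex was 1.3 (wild type) and 1.15 (*duper*), and in SCN it was 0.995 and 0.708. The liver ratios were 0.391 (95% counting interval 0.374 to 0.409) and 0.930 (0.893 to 0.967). It was thus lower in *duper* in both brain tissues and higher in liver. Averaged over tissues, the log2 difference between genotypes was 0.20, with p = 1.0 in an exact two-sided sign-flip test over 3 tissues, whose smallest possible p is 0.25. For *Per1* to *Per3* the cortical ratios were 1.84 and 2.01, the SCN ratios 0.812 and 0.877 and the liver ratios 0.649 and 1.51. It was higher in *duper* in 3 of 3 tissues, by 0.49 on the log2 scale on average, which reached that smallest exact p of 0.25 (0.833 adjusted over the 5 pairs of genes). Without liver the mean difference was 0.12. For *Per3* to *Per2* the cortical ratios were 0.705 and 0.576, the SCN ratios 1.23 and 0.807 and the liver ratios 0.602 and 0.615, with a mean log2 difference of -0.29 (exact p = 0.5). In liver, then, *Per2* and *Per3* stood in nearly the same proportion in both genotypes, while the ratio of *Per1* to either of them was higher in *duper*.

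*Csnk1d* stood above *Csnk1e* in every library. Their cortical ratios were 1.25 and 1.27, their SCN ratios 1.44 and 1.24 and their liver ratios 2.19 and 2.30. Liver exceeded brain by 0.79 on the log2 scale, and both liver ratios lay above all 4 brain ratios, which gives p = 0.133 in an exact two-sided permutation test, the smallest that 2 against 4 libraries can give. Between genotypes the mean log2 difference was -0.04 (exact p = 1.0), and its sign turned with the most abundant transcript alone (0.0034) and with counts per kilobase (0.0114).

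*Btrc* and *Fbxw11* parted far more. Their cortical ratios were 0.678 and 0.708, their SCN ratios 0.879 and 0.977, and both liver ratios 0.122. *Fbxw11* had the higher TPM in every library, narrowly in SCN and by a wide margin in liver. In the *duper* SCN library the counting interval of the ratio, 0.899 to 1.06, included 1. Liver lay below brain by a log2 difference of -2.72, again with the smallest possible exact p of 0.133 (0.333 adjusted over 5 pairs). With the most abundant transcript of each gene alone it was -4.86, and the mean difference between genotypes was 0.69 in place of 0.07. The 2 genotypes gave liver ratios with overlapping counting intervals, 0.111 to 0.135 in wild type and 0.111 to 0.133 in *duper*.

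**Figure D4:**
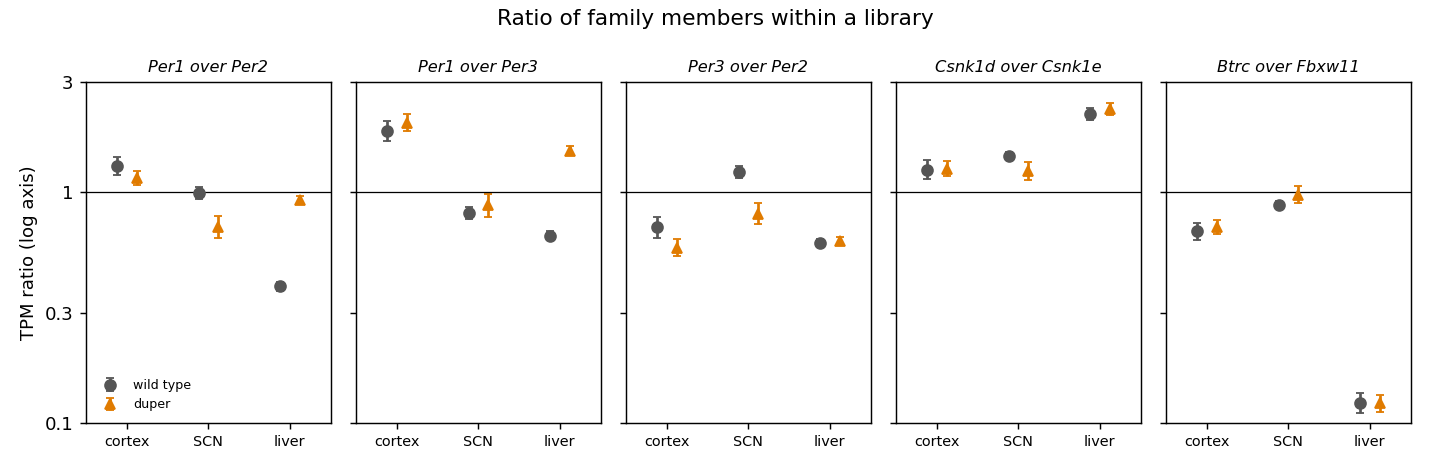
TPM ratio of 2 family members within a library (log axis) for 5 pairs, by tissue, with circles for wild type, triangles for *duper* and bars for 95% counting intervals. The *Btrc* to *Fbxw11* ratio lies at 0.122 in both liver libraries, and the ratios of *Per1* to *Per2* and of *Per1* to *Per3* separate the genotypes most in liver.

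Between SCN and cortex, *Per1* was the member called, lower in SCN by a log2 fold change of -1.35 ± 0.17 (adjusted p = 0.00408, edgeR's quasi-likelihood test). Over all genes 11.2% were called, 3.91% on the higher and 7.28% on the lower side. Mean levels were 64.9 ± 3.83 TPM in cortex and 25.4 ± 2.12 TPM in SCN (SD, n = 2 libraries, 1 per genotype). The call was lost without the wild-type cortex library, where the difference was -1.21 with an adjusted p of 0.0954. *Per2* was also lower in SCN, by -0.80 ± 0.29, without passing (adjusted p = 0.135). Without the *duper* SCN library its difference was -1.25 and passed (adjusted p = 0.0487). *Fbxw11* had -0.39 ± 0.13 (adjusted p = 0.12), and *Per3*, *Csnk1d*, *Csnk1e* and *Btrc* had values between -0.18 and 0.03. Library size alone moved the median gene from 0.02 to 0.19 and turned *Csnk1d* from -0.04 to 0.13. The cortical markers summed to 1357 and 1276 TPM in cortex and to 71.6 and 64.9 TPM in SCN, and which cells supplied the *Per1* mRNA was not tested.

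Between liver and brain, *Btrc*, *Csnk1e*, *Fbxw11* and *Csnk1d* were lower in liver under every scaling, and the direction of the *Period* genes depended on the scaling. Brain to liver ratios of mean TPM were 29.8 for *Btrc*, 6.76 for *Csnk1e*, 4.58 for *Fbxw11*, 3.90 for *Csnk1d*, 3.17 for *Per1*, 2.16 for *Per3* and 1.73 for *Per2*. The lowest brain library stood 28.2-fold above the highest liver library for *Btrc*, whereas for *Per2* the ranges overlapped. After TMM normalization, which sets the median gene near no change (-0.001), *Btrc* had -3.33 ± 0.13 (adjusted p = 9.39e-07), *Csnk1e* -1.21 ± 0.11 (adjusted p = 7.69e-05) and *Fbxw11* -0.61 ± 0.12 (adjusted p = 0.00271). These 3 were called lower. Of all genes 67.4% were called, 34.1% as lower and 33.3% as higher. Relative to that median gene *Per2* was called higher in liver, at 0.83 ± 0.24 (adjusted p = 0.0183). *Csnk1d*, at -0.49 ± 0.11 (adjusted p = 0.00679), and *Per3*, at 0.42 ± 0.16 (adjusted p = 0.0467), did not reach the fold threshold, and *Per1* stood at 0.05 ± 0.14. Taking library size alone moved the median gene to -1.21, *Per2* to -0.37, *Per3* to -0.78 and *Per1* to -1.16, and the share of calls on the higher side from 49.4% to 19.3%. *Per2* also lost its call when any one of the wild-type cortex (0.73), wild-type SCN (0.58) or wild-type liver library (0.29) was left out, and *Fbxw11* when the wild-type liver library was (-0.45). By rank within a library, *Btrc* went from above 88.1% to 89.9% of all genes in brain to above 60.5% and 62.0% in liver, and *Per2* from above 77.0% to 88.8% to above 90.1% and 85.0%.

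Transcripts were examined for the 4 genes that have several. The *Period* genes have 1 annotated transcript each, *Csnk1d* 4, *Csnk1e* and *Btrc* 8 each and *Fbxw11* 6, and here they are named by their length. Shares are of a gene's estimated counts, which Kallisto divides among transcripts that overlap in sequence. A gap was counted where a share differed by at least 15 percentage points between every library of one tissue and every library of the other, a limit set after the values had been seen, and no test was made. The *Fbxw11* transcript of 4383 bases made up 22.0% (wild type) and 18.9% (*duper*) of the gene in cortex, 42.0% and 45.4% of it in SCN, and 1.74% and 0% of it in liver. The transcript of 4275 bases made up 55.8% and 57.0% of the cortical, 36.1% and 36.8% of the SCN and 50.3% and 64.5% of the liver counts. The leading *Fbxw11* transcript was thus the shorter one in cortex and liver and the longer one in SCN. Both transcripts had such a gap between SCN and cortex, as did a transcript of 9.92% of 5000 genes examined in the same way.

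*Btrc* was led by a transcript of 6171 bases in brain, with 64.0% and 43.0% in cortex and 64.1% and 57.9% in SCN. In liver that transcript had 5.66% in wild type and 45.6% in *duper*, and a transcript of 6105 bases had 50.9% and 33.2%, against at most 8.88% in brain. These liver shares rest on 476 and 607 counts. The *Btrc* transcript of 6105 bases and the *Fbxw11* transcript of 4383 bases were apart between liver and brain by at least 15 points, where 22.7% of genes had such a gap. *Csnk1d* came from 1 transcript, of 3537 bases, for 85.0% to 91.7% of its counts in all libraries. *Csnk1e* was led by a transcript of 2636 bases, with cortical shares of 60.5% and 55.4%, SCN shares of 58.6% and 50.9% and liver shares of 36.0% and 46.2%. None of the 4 genes had a gap of that size between genotypes in the same direction in all tissues, and 1.3% of genes did.

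**Figure D5:**
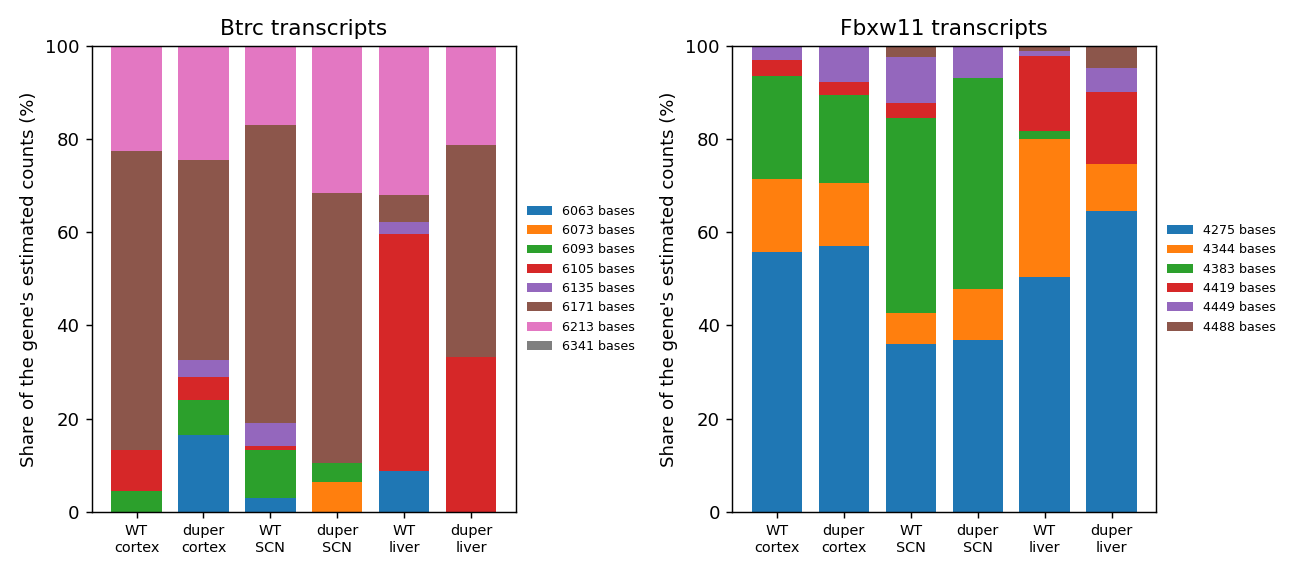
Share of the estimated counts of *Btrc* and of *Fbxw11* (%, from 0 to 100) assigned to each annotated transcript, named by its length in bases, in the 6 libraries (WT, wild type). The *Fbxw11* transcript of 4383 bases takes 42.0% and 45.4% in SCN and at most 1.74% in liver, and the *Btrc* transcript of 6105 bases takes 50.9% and 33.2% in liver.

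Other enzymes that modify PER or turn it over were taken as a list of 32 genes, of which 31 were tested. Between genotypes none was called or had an unadjusted p under 0.05, where 0.00547% and 3.32% of all genes did. The median log2 fold change was 0.04 (0.01 over all genes). The smallest p-values belonged to *Mdm2*, a ubiquitin ligase (0.19 ± 0.12), *Prkaa2*, a catalytic subunit of AMP-activated kinase (-0.34 ± 0.23), and *Csnk1g3*, another casein kinase 1 (-0.16 ± 0.13). In the interaction 1 was called, against 3.24% of all genes. *Prkaa2* had liver levels of 16.9 TPM (wild type) and 7.21 TPM (*duper*), cortical levels of 13.8 and 15.9 TPM and SCN levels of 9.64 and 9.36 TPM, an interaction of -1.10 ± 0.19 (adjusted p = 0.00637). Between SCN and cortex 4 of the 31 were lower and none higher, where 7.28% of all genes were lower and 3.91% higher. Among them were the deubiquitinase *Usp2* (-1.61 ± 0.21), the kinase *Gsk3a* (-0.74 ± 0.15) and the phosphatase subunit *Ppp1cb* (-0.60 ± 0.14).

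Relative to the median gene, 5 of these 31 were called higher and 9 lower in liver than in brain, with a median of -0.34 (-0.001 over all genes, of which 33.3% were called higher and 34.1% lower). The largest differences on the higher side were *Prkaa2* (1.5 ± 0.24), the phosphatase *Ppp1ca* (0.99 ± 0.13) and *Prkaa1* (0.98 ± 0.20). On the lower side they were *Gsk3a* (-1.84 ± 0.14), *Gsk3b* (-1.80 ± 0.12) and *Cdk5* (-1.38 ± 0.13). By TPM, *Ppp1ca* and *Prkaa1* were lower in liver. *Ppp1ca* had 141 and 156 TPM in liver and 203 to 244 TPM in brain. *Prkaa1* had 8.8 and 8.1 TPM in liver and 10.2 to 15.8 TPM in brain. The liver levels of *Prkaa2*, 16.9 and 7.21 TPM, lay on either side of its brain levels of 9.36 to 15.9 TPM. Relative to the median gene, the SCF core subunits that work with both F-box proteins were not called between liver and brain. Values were -0.34 ± 0.14 for *Skp1*, -0.28 ± 0.11 for *Cul1* and -0.38 ± 0.11 for *Rbx1*, far smaller than the -3.33 of *Btrc*. By TPM each was lower in liver. *Skp1* had 190 and 143 TPM in liver and 557 to 706 TPM in brain. *Cul1* had 32.4 and 30.9 TPM against 111 to 118 TPM, and *Rbx1* 47.2 and 37.9 TPM against 145 to 189 TPM.

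Partners of PER and regulators of *Per* transcription formed a list of 30 genes, of which 28 were tested. Between genotypes none was called (0.00547% of all genes were), and the median was 0.05. An unadjusted p under 0.05 was found for 3 of them, where 3.32% of all genes had one. Among these were *Cry1* and the repressor gene *Bhlhe41* (0.54 ± 0.20). The interaction called 3 of them, against 3.24% of all genes. *Arntl*, which encodes BMAL1, had liver levels of 1.43 and 6.33 TPM, cortical levels of 27.8 and 31.7 TPM and SCN levels of 16.6 and 20.1 TPM, an interaction of 2.09 ± 0.28 (adjusted p = 0.00116). *Timeless* had liver levels of 6.53 and 37.0 TPM, cortical levels of 18.2 and 18.5 TPM and SCN levels of 4.26 and 4.68 TPM, an interaction of 2.55 ± 0.21 (adjusted p = 2.73e-05). *Dbp*, a transcription factor gene driven by CLOCK and BMAL1, had liver levels of 40.5 and 20.2 TPM, cortical levels of 169 and 155 TPM and SCN levels of 89.9 and 93.1 TPM, an interaction of -0.76 ± 0.19 (adjusted p = 0.0478). Of the genes called in the interaction, *Per2*, *Prkaa2* and *Dbp* stood lower in *duper* liver at CT15, and *Arntl* and *Timeless* stood higher. *Per3* stood lower and *Per1* higher in *duper* liver without being called by that test. *Clock* had 6.52 and 6.42 TPM there and *Cry2* 13.8 and 15.7 TPM. CT15 was the only RNA-seq time, and a difference in level cannot be told apart from a shift in the timing of a rhythm.

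Between SCN and cortex 6 of the 28 were lower in SCN and none higher (7.28% lower and 3.91% higher over all genes), and the median was -0.33. The largest were *Npas2*, the CLOCK paralog (-2.21 ± 0.19), *Hlf* (-1.62 ± 0.14) and *Bhlhe40* (-1.41 ± 0.14), and the others were *Crtc1* (-0.71 ± 0.15), *Rora* (-0.64 ± 0.13) and *Nr1d2* (-0.63 ± 0.13). Relative to the median gene, 8 were called higher and 8 lower in liver than in brain, beside the 33.3% and 34.1% of all genes. *Nfil3* (3.22 ± 0.19) and *Sik1* (2.79 ± 0.12) were on the higher side, and *Rorb* (-5.46 ± 0.28), *Bhlhe41* (-5.21 ± 0.27) and *Ciart* (-3.22 ± 0.37) led the lower one.

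The 7 genes also differed in how alike their patterns were over the 6 libraries, described by Pearson's r of log2(TPM + 1) with no test, since the libraries share tissues. The kinase and F-box genes were close to each other, with r of 0.998 between *Csnk1d* and *Csnk1e* and 0.986 between *Btrc* and *Fbxw11*. All of them stood higher in every brain library than in both liver libraries, and a shared gap of that kind by itself raises r. The genes most like each of them, named below, had higher r still. *Per2* was the least like them, with r from 0.624 for *Btrc* to 0.698 for *Fbxw11*, and had r of 0.802 with *Per1* and 0.800 with *Per3*. Among 11342 named genes that averaged 5 TPM or more, those most like *Per1* were *E2f1* (0.998), *Etv5* (0.996) and *Ankrd9* (0.996). Those most like *Per2* were *Ttc39b* (0.997), *Fars2* (0.981) and *Nab1* (0.979). Those most like *Per3* were *Slc4a5* (0.998), *Polg* (0.998) and *Fgd6* (0.997). *Csnk1d* was most like *Larp6*, *Capn9* and *Stmn4*, *Csnk1e* most like *Sema4f*, *Sptb* and *Prelid3a*, *Btrc* most like *Ckmt1a*, *Dennd2a* and *Erbb4*, and *Fbxw11* most like *Camkv*, *Actr1b* and *Krt222*, all with r of at least 0.9999.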

How the data were processed

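RNA of cortex, SCN and liver from *duper* and wild-type hamsters was sequenced from TruSeq Stranded mRNA libraries as paired reads of 100 bases. The authors quantified transcripts with Kallisto (version not given in the sources used here) against the reference MesAur2.0 and summed the transcripts of each gene with tximport. The deposited tables hold estimated counts without normalization and TPM, for genes and for transcripts, along with transcript lengths. Gene values equalled transcript sums within 0.5 counts for 99.99% of values. All 67818 transcripts were matched by identifier to the BCM_Maur_2.0 annotation, used only for names. Reads that could come from several transcripts are divided by estimation. The gene counts were whole numbers in all 6 libraries for *Per2*, *Per3*, *Csnk1e* and *Fbxw11*, and fractional parts of the other 3 were at most 0.126% of the count.

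Estimated counts were rounded. The quasi-likelihood F test of edgeR 4.0.16 (R 4.3.3) was applied after filterByExpr, grouped by genotype, and TMM normalization, in a model with tissue and genotype, and for the interaction with a genotype by liver term. To obtain an SE, the size of a log2 fold change was divided by the root of its F statistic. With 1 library per genotype and tissue, the spread is that between tissues' genotype effects, and p-values do not measure the spread between hamsters, since animals were mixed or merged. TMM factors were 1.24 to 1.41 in brain and 0.606 and 0.539 in liver. Ratios of TPM carry 95% Clopper-Pearson intervals (scipy 1.17.1) from the counts, without pseudocount. Python 3.11.15, numpy 2.4.6, pandas 2.3.3 and matplotlib 3.10.9 were also used. The study's methods name DESeq2 with tissue as a covariate. DESeq2 1.42.0, limma 3.58.1 on log2(TPM + 1) and log2(TPM + 0.1), the likelihood ratio test, other filters, library size, transcript length offsets, other ratio definitions and leaving out libraries were alternatives. The steps were tested on simulated data.

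The 7 genes, both gene lists and the marker lists were chosen with earlier results of these data known. All 7 genes are named in each comparison. From the lists, named are the genes called between genotypes, in the interaction or between SCN and cortex, the 3 with the smallest p between genotypes, and the 3 largest differences in each direction between liver and brain. Some genes that this rule names are not reported here. *Skp1*, *Cul1*, *Rbx1*, *Clock* and *Cry2* were added after their values were seen, as were the settings for transcript shares (at least 100 counts of the gene in every library and a gap of 15 points). Searches of promoter and protein sequences were planned and not done here.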

Additional observations from a re-analysis of the deposited data

Results flagged for a closer look

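The genotype effect on *Per2* was called as different between liver and brain by edgeR's interaction test and not by DESeq2's. The interaction was -1.10 on the log2 scale (SE 0.19, adjusted p = 0.00691, edgeR's quasi-likelihood test), with *duper* below wild type in liver (17.5 and 31.3 TPM) and above it in cortex (58.6 and 47.9 TPM) and SCN (37.9 and 24.0 TPM). DESeq2 gave an adjusted p of 0.0847. Liver has 1 library per genotype, so its effect has no replicate, and the spread in the test rests on the gap between the cortex and SCN effects. Groups of more than 1 library were too small for single libraries to be examined as outliers.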

How the results depend on the processing

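Of 491 values under alternatives, 414 were counted as unchanged and 36 as changed in sign. Unchanged meant the same sign and call for a fitted gene and the same sign for a family ratio. For a ratio within a tissue it meant a value inside the counting interval, and for a number of genes a change within a set factor. Ratios within a tissue counted as changed in sign only if past the threshold at first. The sign turns of *Csnk1d* and *Csnk1e* in liver are therefore not among the 36. Calls between genotypes (1 gene) numbered 41 with DESeq2, 48 without a filter, 91 with the likelihood ratio test, 2 with limma on log2(TPM + 1), and 2 to 34 with a tissue left out. Calls between SCN and cortex (2045 genes) numbered 3188 with the likelihood ratio test and 267 to 1286 with 1 library left out (267 without wild-type cortex, 464 without *duper* cortex, 620 without wild-type SCN, 1286 without *duper* SCN). Library size alone moved their share on the higher side from 35.0% to 57.3%. Interaction calls (593 genes, 58.2% higher) numbered 193 with DESeq2, 350 with library size (34.9% higher) and 1358 with the likelihood ratio test.

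Between genotypes, library size gave -0.0233 for *Csnk1d*, -0.0355 for *Csnk1e* and -0.0009 for *Fbxw11*, and limma gave -0.0162 and -0.0165 for *Csnk1d*. Leaving out a tissue gave -0.2219 to 0.4521 for *Per2*, -0.3528 to 0.0047 for *Per3*, -0.0302 to 0.0795 for *Csnk1d*, -0.0409 to 0.0711 for *Csnk1e* and -0.0261 to 0.0776 for *Fbxw11*. Between SCN and cortex, library size gave 0.1336 for *Csnk1d*, and leaving out a library gave -0.3564 to 0.0166 for *Per3*, -0.127 to 0.0631 for *Csnk1d* and -0.0471 to 0.1002 for *Btrc*. Between liver and brain, *Per1* was -0.0371 with DESeq2, -1.1614 with library size, -0.0068 with at least 10 counts in every library, -1.462 and -1.5163 with limma (pseudocounts 1 and 0.1), and -0.1506 to 0.3284 with a library left out. *Per2* was -0.3693, -0.7482 and -0.7707, and *Per3* -0.7829, -1.1041 and -1.1548, with library size and limma. *Per3* was called higher without *duper* liver (0.7626), and *Csnk1d* was called lower with DESeq2, library size and limma (-0.5856 to -1.9592). The *Btrc* interaction was -0.0268 with library size.

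For family ratios, leaving out a tissue gave -0.3294 to 0.5406 for *Per1* over *Per2* and -0.1015 to 0.043 for *Csnk1d* over *Csnk1e* between genotypes, and leaving out a library gave -0.9712 to 0.2474 for *Per1* over *Per3* between liver and brain. *Csnk1d* over *Csnk1e* was 0.0034 with the most abundant transcript and 0.0114 with counts per kilobase. The causes were not tested. No paired analysis was possible because the labels give no replicate numbers, beyond the setting of the genotypes against each other within a tissue that the tissue term makes. Leaving out a library was not run for the interaction, which has 1 residual degree of freedom. The widest counting interval of the 7 genes was that of *Btrc* in liver, on 476 and 607 counts.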
